A study of Arabidopsis thaliana with 12 samples.

Results

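The genes AT5G39980, AT3G49740 and AT1G31790 encode pentatricopeptide repeat (PPR) proteins of Arabidopsis thaliana, and their transcripts were compared between a prors1 mutant and the wild type (WT). They are 3 of the 658 genes that were tested through a probe assigned to that gene alone, and each was measured by 1 probe. They were chosen by their intensities in these same samples, which an earlier look had shown to be higher in prors1, so the genotype differences of these 3 genes are given as descriptions, without a test. The samples were 6 of WT and 6 of prors1, all in the ecotype Columbia 0, with replicate numbers 1 to 6 in each genotype. The labels describe the mutant as lacking a prolyl-tRNA synthetase, the enzyme that loads transfer RNA with proline. The assay was a single-channel array of total RNA, with 3439 probes in the table used here. The sources used here give neither the mutant allele nor the tissue, age and growth of the plants, and do not say whether the samples came from separate plants. The level of PRORS1 itself was not analysed here.

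PPR proteins are encoded in the nucleus and most of them are imported into plastids or mitochondria. There they bind organelle transcripts through a row of short helical repeats, and they take part in RNA editing, intron splicing, end processing, stabilisation and translation. Angiosperms have a very large PPR family, and loss of single members often leaves one or a few organelle transcripts unedited or unspliced. PRORS1 acts in the protein synthesis of both plastids and mitochondria, the compartments in which PPR proteins work. The gene tables used here give no target transcript and no organelle for AT5G39980, AT3G49740 or AT1G31790, and none is assumed.

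The deposited intensities were linear, ran up to 100 and were distributed differently in the genotypes. Array medians were 0.135 to 0.169 in WT and 0.25 to 0.444 in prors1, and 368 to 396 probes per WT array against 215 to 316 per prors1 array were deposited at 0. Before scaling the median feature was therefore higher in prors1 by 0.91 (log2), against -0.02 after quantile scaling, which gives all arrays 1 distribution. Within a genotype, samples 1-2, 3-4 and 5-6 resembled each other and may be repeat measurements, which the labels do not state. In whole samples, more cells of a type and more RNA per cell cannot be told apart.

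AT5G39980 had the largest difference of the 3 after quantile scaling. Its deposited intensity ran from 0.411 through a median of 0.505 to 0.659 in WT, and from 2.18 through 2.46 to 2.72 in prors1. The lowest prors1 value was thus well above the highest WT value, and the ratio of the means was 4.58. After quantile scaling WT had a log2 level of -0.55 ± 0.16 and prors1 one of 1.19 ± 0.13 (SD, n = 6 each), a difference of 1.74 ± 0.10 (SE) or 3.35-fold. The gap between the lowest prors1 and the highest WT value was 1.38 on the log2 scale, which was the widest gap of the 3 genes.

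AT3G49740 was the most variable of the 3. Its deposited intensity ran from 0.100 through 0.154 to 0.258 in WT, and from 0.467 through 0.9 to 1.11 in prors1. The genotypes did not overlap, but samples 5 and 6 were the lowest of both genotypes, at 0.117 and 0.100 in WT and at 0.539 and 0.467 in prors1. The ratio of the mean deposited intensities was 5.22. On the scaled log2 values WT stood at -1.99 ± 0.30 and prors1 at -0.59 ± 0.37 (SD, n = 6 each), a difference of 1.41 ± 0.19 (SE) or 2.65-fold. The gap between the genotypes was 0.33 on the log2 scale, the narrowest of the 3.

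AT1G31790 was the least variable of the 3 in WT. Its deposited intensity ran from 0.204 through 0.245 to 0.268 in WT, and from 1 through 1.13 to 1.26 in prors1. Again no prors1 sample reached down to the WT values, with a ratio of the means of 4.62. On the scaled log2 values WT stood at -1.45 ± 0.08 and prors1 at -0.07 ± 0.21 (SD, n = 6 each), a difference of 1.38 ± 0.11 (SE) or 2.61-fold. Among the prors1 samples replicate 4 was the lowest, at -0.45, and the gap to the highest WT value was still 0.91.

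**Figure D1:**
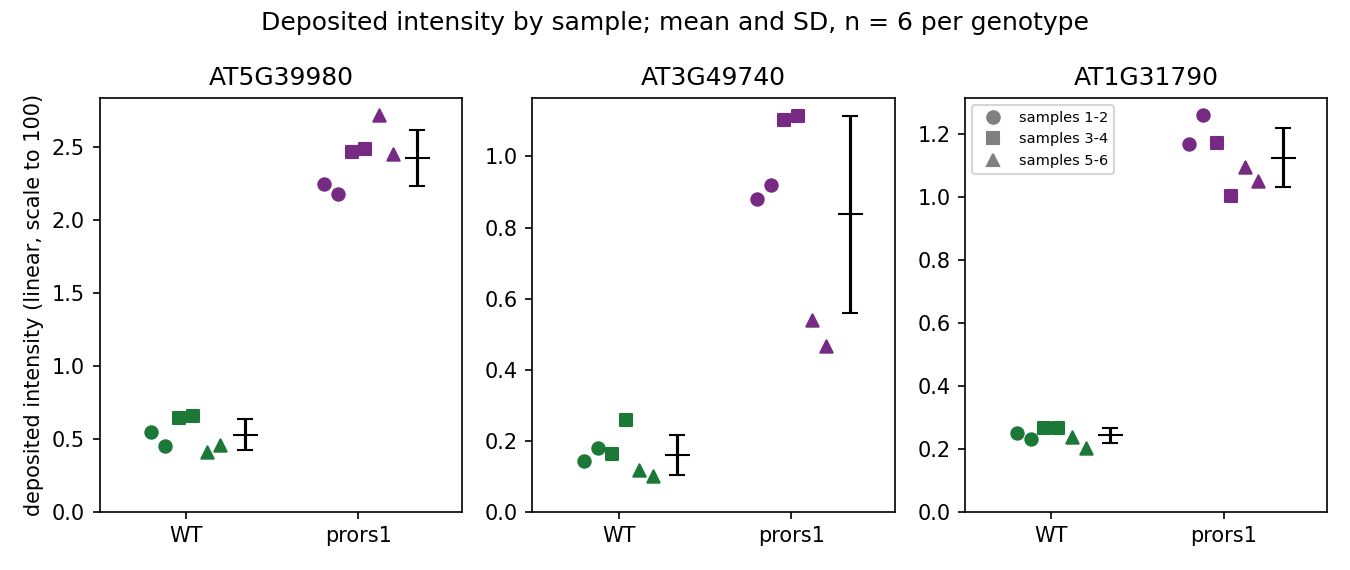
Deposited intensity (linear, y axis from 0) of AT5G39980, AT3G49740 and AT1G31790 in each of the 6 WT and 6 prors1 samples, with the symbol giving the replicate numbers and the bar the mean ± SD. The genotypes do not overlap in any panel, and the prors1 samples 5 and 6 of AT3G49740 lie below the other prors1 samples.

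The 3 genes thus shared groups that did not overlap. After quantile scaling the lowest prors1 value exceeded the highest WT value in 11.1% of the 658 single-gene features and in 11.4% of all 3303 features. Because the genes were chosen for this contrast, nothing is read from that count. From the top, the differences of AT5G39980, AT3G49740 and AT1G31790 ranked 7th, 23rd and 25th of 658 single-gene features after quantile scaling (3rd, 14th and 16th of the 460 never at the intensity floor). They ranked 48th, 28th and 50th of 653 as deposited, 60th, 37th and 61st of 654 after division by array medians, and 7th, 18th and 17th of 653 after cyclic loess, so their place depended on the scaling. None of the 3 genes was at the floor in any sample.

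Within an array, the position of a probe among all 3439 probes is kept by quantile scaling and by division by the array median. Cyclic loess need not keep it. The AT5G39980 probe stood at the 77.5th to 82.7th percentile of the WT arrays and at the 93.6th to 95th percentile of the prors1 arrays. The AT3G49740 probe moved from the 40.8th to 62.5th percentile in WT to the 69.5th to 84.7th in prors1. The AT1G31790 probe was at the 60.9th to 65.4th percentile in WT and at the 81.8th to 87.9th in prors1. The ranges of the 2 genotypes did not overlap for any of the 3 probes, and these positions were read from the values as deposited. Quantile-scaled values follow from these positions, so this is no result apart from the one after quantile scaling.

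Samples with the same replicate number were also compared directly. Over 2385 features never at the floor, the departure of each sample from its genotype mean had a correlation of 0.35 to 0.49 for a WT and a prors1 sample that share a number, and of -0.29 to 0.27 for those that do not, so the numbers pair the samples. The labels do not explain the numbers. All 6 pairs had the higher value in prors1 for each of the 3 genes. This follows from genotypes that do not overlap, and the share of all features that rise in every pair was not counted.

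For AT5G39980 the 6 paired ratios after quantile scaling were 2.87, 3.28, 3.13, 3.13, 4.27 and 3.57 for replicates 1 to 6. Pair 5 gave the highest ratio, with the lowest WT and the highest prors1 value of this gene. For AT3G49740 they were 3.01, 2.64, 3.40, 2.39, 2.34 and 2.31. Here samples 5 and 6 were low in both genotypes, so their ratios stayed close to that of pair 4 although their levels were the lowest. For AT1G31790 they were 2.69, 3.14, 2.38, 1.99, 2.71 and 2.88, with the lowest ratios in pairs 3 and 4, in which the prors1 level was lowest. On the deposited values the paired ratios ran from 3.78 to 6.62 for AT5G39980, from 4.31 to 6.73 for AT3G49740 and from 3.76 to 5.43 for AT1G31790.

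With samples 1-2, 3-4 and 5-6 averaged, the scaled ratios were 3.07, 3.13 and 3.91 for AT5G39980. They were 2.82, 2.85 and 2.32 for AT3G49740 and 2.91, 2.18 and 2.80 for AT1G31790. The order of the 3 sets therefore differed from gene to gene. With these averages, the SE of the log2 difference was 0.16 for AT5G39980, 0.26 for AT3G49740 and 0.16 for AT1G31790. Over the single samples the SE was 0.10, 0.19 and 0.11 in the same order, which treats all samples as independent. The share of the within-genotype variation that lay between these sets was 69.5% for AT5G39980, 80.0% for AT3G49740 and 66.1% for AT1G31790, against a median of 74.3% over the 460 single-gene features never at the floor.

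**Figure D2:**
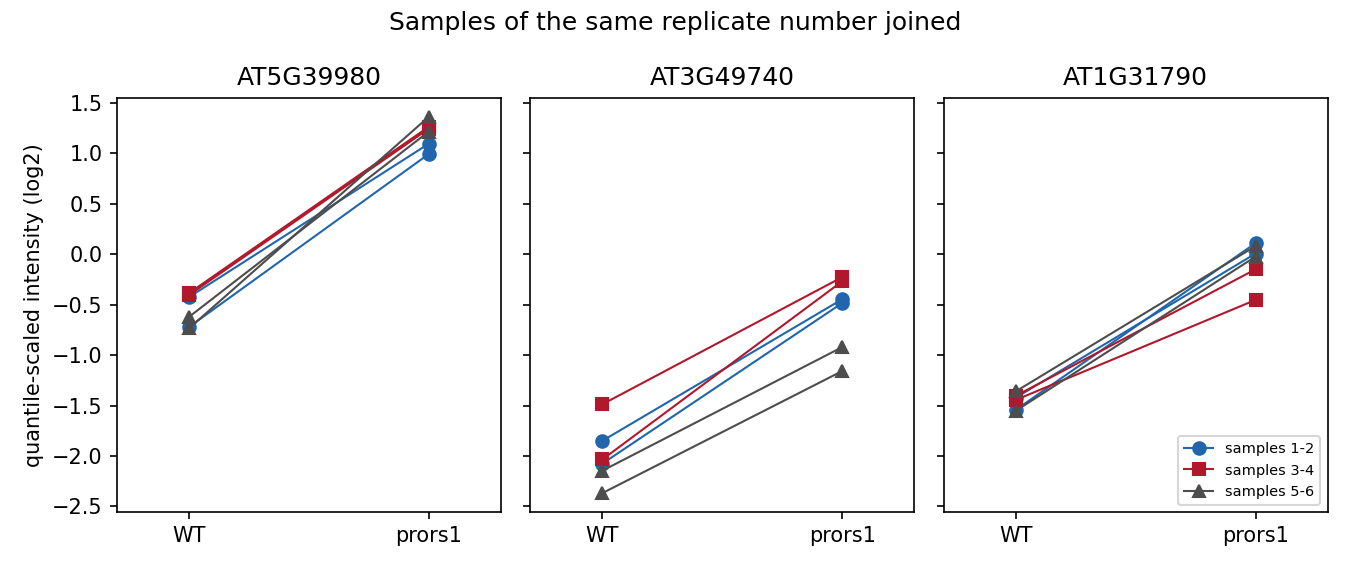
Quantile-scaled log2 intensity (y axis) of AT5G39980, AT3G49740 and AT1G31790, with the WT and prors1 samples of the same replicate number joined by a line and coloured by samples 1-2, 3-4 and 5-6. All 18 lines rise from WT to prors1, and the 2 lines of samples 5 and 6 end lowest for AT3G49740.

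The size of the difference depended on the scaling and its direction did not. On the values as deposited the log2 differences were 2.22 ± 0.14 for AT5G39980, 2.38 ± 0.28 for AT3G49740 and 2.21 ± 0.11 for AT1G31790 (SE). These are 1.3, 1.46 and 1.3 above the median feature, which itself was 0.91 higher. When each array was divided by its median they were 1.07 ± 0.19, 1.23 ± 0.18 and 1.06 ± 0.17 (SE), or 2.10-, 2.35- and 2.09-fold. After cyclic loess, a scaling that removes trends with intensity, they were 1.83 ± 0.12, 1.47 ± 0.19 and 1.5 ± 0.12 (SE). AT5G39980 led the 3 genes after quantile scaling and cyclic loess, and AT3G49740 led as deposited and after division by array medians, so the order among them belongs to the scaling. The genotypes did not overlap for any of the 3 genes under any of the 4 scalings. The share of all features without overlap was counted after quantile scaling only, and nothing is read from the lack of overlap of these chosen genes.

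**Figure D3:**
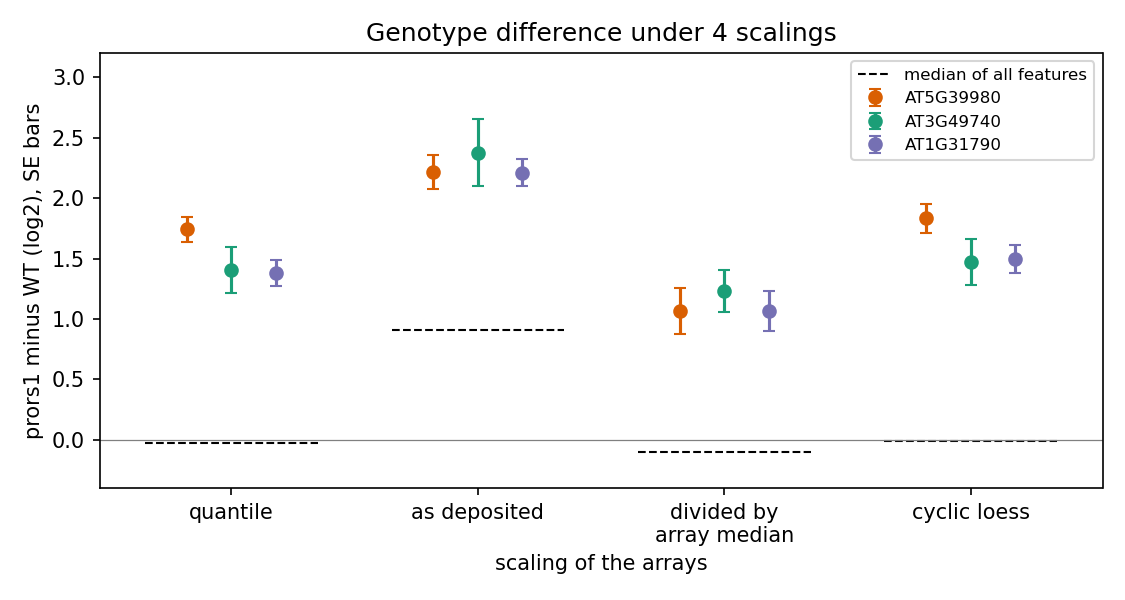
Difference between prors1 and WT (log2, y axis, with SE bars) of AT5G39980, AT3G49740 and AT1G31790 under 4 scalings of the arrays (x axis), with the median of all features as a dashed line. All 12 differences lie above the dashed line of their scaling, between 1.06 and 2.38, and AT5G39980 is the highest of the 3 in the quantile and cyclic loess columns only.

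Other genes of organelle RNA processing on the array were compared next. The list used was written by hand and extended by gene names, because the gene tables hold no product descriptions. PPR genes and other organelle RNA genes of the array that are not on it are therefore not counted here. Of its 55 further PPR loci, 4 had a single-gene probe. In limma after quantile scaling 1 of the 4 was higher in prors1, 0 were lower and 3 did not pass (Benjamini-Hochberg adjustment over all 3303 features, threshold 0.05; 1 of the 4 had an unadjusted p under 0.05). Of all single-gene features 20.7% were called higher and 20.2% lower (19.6% and 23.2% of all features), so 1 call among these 4 listed genes is near the background. These 4 do not stand for the PPR genes of the array as a whole, and PPR genes off the list may differ from them. The median difference of the 4 was -0.05 on the log2 scale, against -0.02 over the single-gene features without AT5G39980, AT3G49740 and AT1G31790.

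The gene that was called was OTP85 (AT2G02980), which encodes an editing factor for the plastid ndhD transcript. Its scaled log2 level ran from -4.42, the intensity floor, through a median of -3.86 to -3.08 in WT, and from -3.56 through -3.04 to -2.14 in prors1. The genotypes overlapped, and 2 of the 6 WT values were at the floor. The difference was 0.90 ± 0.31 (SE), or 1.87-fold (limma adjusted p = 0.0349). This call rested on single samples, since it was lost in 6 of 12 fits without 1 sample (WT replicates 1, 5 and 6 and prors1 replicates 3, 5 and 6), with adjusted p of 0.0509 to 0.0766 there. It was also lost with the replicate number as a block (adjusted p = 0.0644) and with samples 1-2, 3-4 and 5-6 averaged (adjusted p = 0.158).

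The other 3 listed PPR genes did not pass the test. CRR21 (AT5G55740), another ndhD editing factor, had a difference of 0.22 ± 0.17 (SE, limma adjusted p = 0.338), with WT values from -1.53 to -0.66 and prors1 values from -1.22 to -0.58 on the log2 scale. AT3G22150 had -0.32 ± 0.19 (SE, adjusted p = 0.208), with WT values from -1.48 to -0.997 and prors1 values from -2.19 to -1.07. AT3G22690 had -0.40 ± 0.35 (SE, adjusted p = 0.396) and was at the floor in 1 sample of each genotype. On the values as deposited CRR21 and AT3G22150 were called higher in prors1, at 1.07 (adjusted p = 0.000148) and 0.68 (adjusted p = 0.000172), where AT3G22150 stood below the median feature of 0.91. The sign of these 3 genes differed between scalings. That of OTP85 was positive after quantile scaling (0.90), as deposited (2.23), after division by array medians (1.34) and after cyclic loess (0.89). AT5G39980, AT3G49740 and AT1G31790 were chosen for being higher in prors1, so their sign is not set against that of the listed genes.

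OTP70 (AT4G25270), a factor for the splicing of the plastid rpoC1 intron, was found by its name in the gene table after the list had been written. The counts of listed PPR genes above therefore leave out OTP70. With OTP70 and the other listed organelle RNA genes given below, 7 genes were measured. Of these, 2 were called higher, 1 was called lower and 4 did not pass, beside 20.7% and 20.2% of single-gene features called higher and lower. OTP70 was measured by a single-gene probe. Its difference was 0.31 ± 0.11 (SE) or 1.24-fold (limma adjusted p = 0.0426). WT values ran from -1.13 to -0.61 and prors1 values from -0.74 to -0.31 on the log2 scale, so the genotypes overlapped. Leaving out 1 sample or 1 number at a time lost the call in 15 of 18 fits, as well as with samples averaged (adjusted p = 0.249), and the difference was -0.10 (adjusted p = 0.545) after division by array medians.

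Of the 86 listed loci for other steps of organelle gene expression, among them editing cofactors, splicing factors, nucleases, polymerases and transcription termination factors, 2 had a single-gene probe. These 2 do not stand for all genes of such steps on the array, termination factors included, and genes off the list may differ from them. mTERF9 (AT5G55580), a plastid member of the mitochondrial transcription termination factor family, was lower in prors1. Its scaled log2 level ran from 0.35 through a median of 0.55 to 0.86 in WT and from -0.87 through -0.15 to 0.38 in prors1. The genotypes overlapped through the prors1 replicate 5 value, the highest of that genotype. mTERF9 fell by 0.78 ± 0.20 on the log2 scale (SE), which is 1.72-fold lower (limma adjusted p = 0.00833). The call was lost as deposited (-0.34, adjusted p = 0.0956) and with samples averaged (adjusted p = 0.1), and the difference stayed negative under all 4 scalings. AT2G25870, listed among the organelle nucleases and measured by 2 probes, had a difference of -0.15 ± 0.12 (SE, adjusted p = 0.364).

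**Figure D4:**
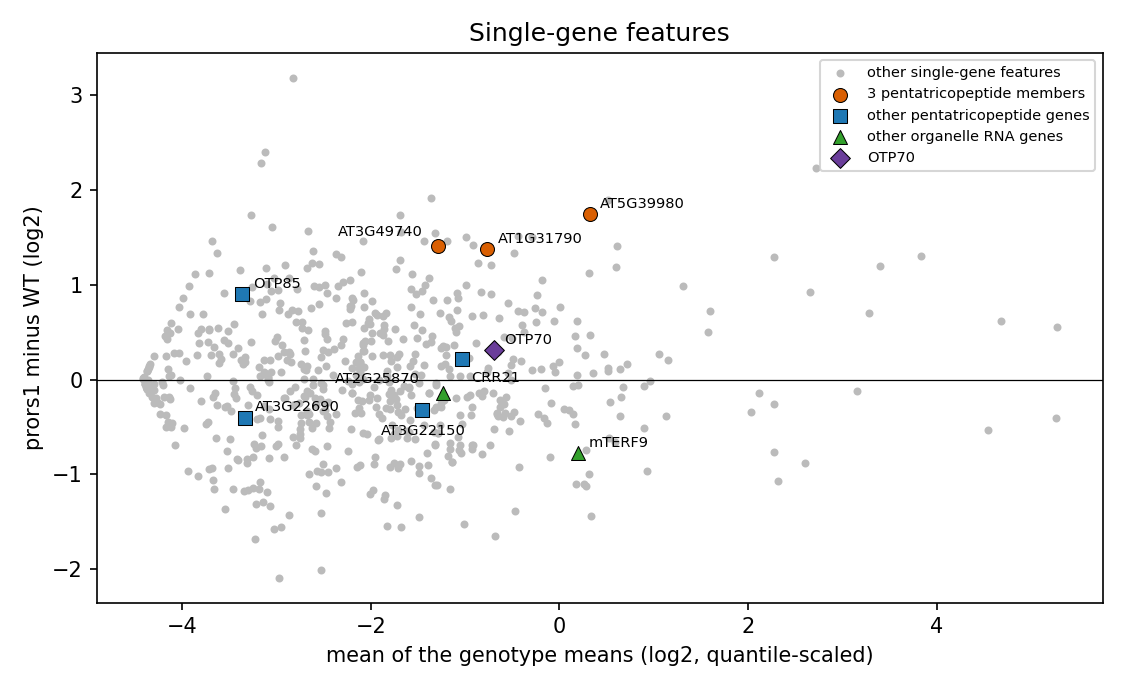
Difference between prors1 and WT (log2, y axis) against the mean of the genotype means (log2, x axis) for the 658 single-gene features after quantile scaling. AT5G39980, AT3G49740 and AT1G31790, which were chosen for being higher in prors1, lie between 1.38 and 1.74. The 4 other PPR genes on the list lie between -0.40 and 0.90, and mTERF9 lies at -0.78. These values are not set against each other, and PPR genes off the list are not marked.

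The genes that lie beside AT5G39980, AT3G49740 and AT1G31790 on their chromosomes were looked up in the TAIR10.1 gene order, over the 10 protein-coding genes on either side. This window was chosen with the result for AT5G40050 known. AT3G49740 and AT1G31790 had 0 measured genes in their windows, and AT5G39980 had 3, all on the same side. AT5G40050, 7 genes away, was called higher (log2 difference 1.57 ± 0.24, SE, 2.96-fold, limma adjusted p = 0.000269). Its values ran from -4.42 through -3.29 to -2.84 in WT and from -1.99 through -1.89 to -1.74 in prors1, without overlap. The lowest WT value, that of replicate 2, lay just above the intensity floor, and without this sample the difference was 1.36. AT5G40070, 9 genes away, was higher by 0.76 ± 0.16 (SE, 1.70-fold, adjusted p = 0.00178), a call lost with samples averaged (adjusted p = 0.0518). AT5G40030, the nearest at 5 genes away, had a difference of 0.35 ± 0.31 (SE, adjusted p = 0.408) and did not pass, but was called higher on the values as deposited (1.19, adjusted p = 0.0222). Of these 3 genes 2 were called higher, beside 20.7% of single-gene features. Because the result for AT5G40050 was known beforehand, nothing is read from this count.

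The small deviations within each genotype, which the genotype difference does not enter, were compared as well. Over the 12 samples the deviations of AT5G39980 correlated at 0.04 with those of AT3G49740 and at -0.10 with those of AT1G31790, and those of the latter 2 at -0.37. In the same order the coefficients were 0.36, 0.29 and 0.08 over the 6 WT samples and -0.27, -0.31 and -0.53 over the 6 prors1 samples, so their signs differed between the genotypes. These coefficients, and those that follow, describe at most 12 points that share arrays and sets of alike samples.

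Among 459 other single-gene features never at the floor, the deviations most like those of AT5G39980 were those of AT1G76240 (r = 0.91), AT2G39360 (r = 0.88) and AT2G22890 (r = 0.74), where the median feature had 0.03. With arrays divided by their medians the coefficient of AT1G76240 was 0.43. Closest to AT3G49740 were AT5G19540 (r = 0.89), PSBW (AT2G30570, r = 0.87), which encodes a small subunit of photosystem II, and AT2G31920 (r = 0.87). All of these were low in prors1 samples 5 and 6. Closest to AT1G31790 were AT1G61590 (r = 0.84), AT1G24040 (r = 0.80) and AT5G62360 (r = 0.78), all low in prors1 samples 3 and 4. Without prors1 replicate 4 these fell to 0.62, 0.57 and 0.55. As deposited, the coefficients of AT1G61590 and AT5G62360 were 0.55 and 0.50. At the other end, the lowest coefficients among the 459 features were -0.76 for AT5G39980, -0.92 for AT3G49740 and -0.81 for AT1G31790. Coefficients of similar size thus occurred with both signs, and the matches are descriptions only. In the order named, the genotype differences (log2) were 0.29, 0.25 and 0.71 for the 3 genes closest to AT5G39980, 0.04, 0.56 and 0.57 for those closest to AT3G49740, and -0.46, -0.67 and 0.04 for those closest to AT1G31790. Each lay below the difference of the gene it was matched to. Nothing is read from this, because AT5G39980, AT3G49740 and AT1G31790 were chosen for being higher in prors1 and the matched genes were not.

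**Figure D5:**
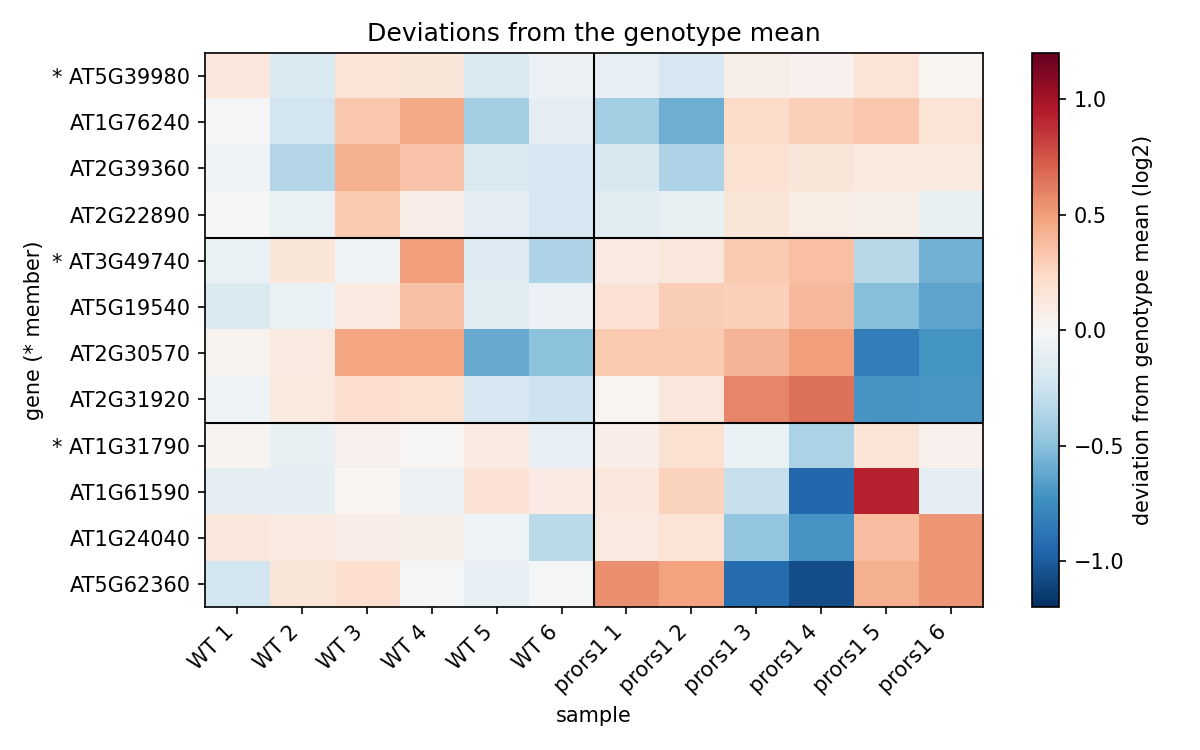
Deviation of each sample from its genotype mean (colour, log2, quantile-scaled) for AT5G39980, AT3G49740 and AT1G31790, each above the 3 genes with the most similar deviations, in the 6 WT and 6 prors1 samples (columns). The AT3G49740 block is low in prors1 samples 5 and 6, and the AT1G31790 block is low in prors1 samples 3 and 4.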

How the data were processed

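The deposited table holds 1 intensity per probe and sample. The sources used here do not say how the authors labelled, scanned, background-corrected or scaled the arrays, and the intensity unit is read from the values. Probes were named from the platform annotation through the TAIR10.1 gene table, which gives 1 gene for 692 of 3439 probes, several for 870 and none for 1877 (690 of the 692 matched). No coordinates or sequences are given. Arrays were quantile-scaled, a floor was set at the 5th percentile of the values above 0 (0.0467, reached by 13.7% of values from below), and the log2 was used. Probes of 1 locus were averaged, and the 135 features that never exceeded the floor were dropped, leaving 3303. Folds near the floor are understated.

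The test was limma, version 3.58.1, under R version 4.3.3 (eBayes after lmFit, 6 against 6, two-sided, Benjamini-Hochberg, 0.05). The same function was run on simulated data with independent samples, which does not cover sets of alike samples such as those found here. The p-values measure the spread between samples, which may be technical, and the number of arrays limits precision. The 3 genes, the lists and the tests were chosen with earlier results of these data known. Named genes are the 3 genes, all measured list genes and, for each of the 3, the 3 genes with the most correlated deviations. OTP70 and the neighbours were added later. Alternatives were other scalings, floors, filters, blocks, variance models and left-out samples.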

Additional observations from a re-analysis of the deposited data

Results flagged for a closer look

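Each named gene was searched in each genotype for a value separated from the remaining 5 by a wide gap. This was found in 1 of 44 searches, and chance alone gives about 1 in 20 for independent values. AT5G40030, a neighbour of AT5G39980, was highest in WT replicate 4 at -0.42 on the log2 scale after quantile scaling, with the next WT value at -1.35. No sample of AT5G39980, AT3G49740 or AT1G31790 stood apart in this way. Such a search cannot find 2 alike samples that stand apart together, such as prors1 samples 5 and 6 of AT3G49740.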

How the results depend on the processing

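The differences of AT5G39980, AT3G49740 and AT1G31790 stayed positive under all 11 alternatives and all 18 fits that left out samples, where they ran from 1.65 to 1.81, 1.31 to 1.51 and 1.32 to 1.51. They moved by more than the SD between replicates as deposited (2.22, 2.38 and 2.21) and, for AT5G39980 and AT1G31790, after division by array medians (1.07 and 1.06). The other floors, the filter on dim features, the blocks, the averaging and the variance model with a trend cannot change these mean differences. Those alternatives are thus no check of their size. The genes were chosen for being higher in prors1, so nothing is read from the sign. Of the 4 other listed PPR genes 1 was called, against 3 as deposited. In limma 0 were called with the floor at the 10th percentile, the dimmest 25% left out, a replicate block, arrayWeights, or samples 1-2, 3-4 and 5-6 averaged or as a random block, with 1, 0, 2, 1, 0 and 1 at an unadjusted p under 0.05, and 0 to 1 without single samples or numbers. OTP85 was removed by the filter on dim features. Of mTERF9 and AT2G25870 1 was called, against 2 with arrays divided by their medians (AT2G25870 -0.42, adjusted p = 0.0118) and 0 with samples averaged. As deposited the 1 call was AT2G25870, higher at 0.73 (adjusted p = 0.0137). Signs also turned as deposited for AT3G22690 (0.91, adjusted p = 0.116) and AT3G22150 (0.68), and after division by array medians for CRR21 (-0.074) and OTP70 (-0.098). Of all features 1414 were called (649 higher and 765 lower), against 2212 as deposited (2030 and 182), 1555 after division by array medians (552 and 1003), 749 with samples averaged (358 and 391), 1664 with the replicate block, and 1181 to 1490 without samples. The replicate block changed no call of a tested gene given above other than OTP85. The cause of these changes was not tested. Intensities near the floor limit OTP85, AT3G22690 and AT5G40050.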
